A study of Mus musculus with 21 samples.

Results

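The keratin-associated protein genes, all genes whose symbol begins with *Krtap*, numbered 58 of the 55491 genes in the skin table and fell into 27 families by the number in their symbol. Their RNA was compared across skin from BALB/c wild-type (WT) mice (n = 3) and from *Ifnk* transgenic (TG) mice, which carry *Ifnk* under the keratin 14 promoter. That promoter is active in basal epidermis and in the outer root sheath of the hair follicle. The transgene was made on the C57Bl/6 background and then backcrossed to BALB/c, and skin of TG mice was taken outside lesions (nonlesional, NL, n = 2) and within lesions (lesional, L, n = 4). All mice were 12 months old and none of the skin was treated with UV light. The labels give no mouse, sex, body site or stage of the hair cycle for a sample, so a difference in any of these and lesion status cannot be told apart. The paper describes lesions with hair loss, most often facial but also on the back or limbs. It places nonlesional samples on the back and at sites comparable to lesions, without naming the site of each library. A library is named here by its group and the number on its label (WT 8 to 10, NL 2 and 3, L 4 to 7). Nothing says that they came from separate mice, so p-values measure the spread between these samples, which may be technical.

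Keratin-associated proteins fill the space between the keratin filaments of the hair shaft and are joined to them, and to each other, through disulfide bonds between cysteines. They are made late in the differentiation of the shaft cortex and cuticle, in follicles that are growing hair. By composition they are divided into high sulfur and ultra-high sulfur proteins, rich in cysteine, and high glycine-tyrosine proteins. Hair keratins are their partners in the shaft, and the keratins of the inner root sheath mark the layer of the follicle that surrounds it.

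Skin libraries held between 40499078 and 56511276 counts. *Ifnk* had 0 counts in the 3 WT libraries, 6 in NL 2, 0 in the library labelled NL 3, and 14, 11, 5 and 8 in L 4 to L 7. Its RNA was too scarce to check the labels one by one, and NL 3 held no more of it than WT skin. The 6 epidermal markers summed to 8450.2 to 10367 CPM in WT skin, 15162 to 17158 CPM in NL skin and 7827 to 22646 CPM in L skin, where CPM is a gene's count per 1e+06 counts of the library after TMM scaling. Keratinocyte RNA was thus present in every library. The 12 inguinal lymph node libraries of the series came from WT and *Ifnk* TG mice, untreated or treated with UV light, with 3 libraries of each kind. In these no Krtap gene had a single count, which allows a share of up to 8.24e-06% to 1.09e-05% of a library.

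In lesional skin the Krtap genes rose together from near absence to a sizeable share of all counts. They took 0.670, 2.66, 0.995 and 1.31% of the counts in L 4, L 5, L 6 and L 7. The share was 0.000442, 0.000330 and 0.000283% in the WT libraries and 0.000512 and 0.00118% in NL 2 and NL 3. The L libraries averaged 1.41% ± 0.875 (SD, n = 4), against 0.000351% ± 8.14e-05 in WT (n = 3) and 0.000848% ± 0.000475 in NL (n = 2) skin. Summed Krtap CPM was 3733-fold higher in L than in WT skin and 1598-fold higher than in NL skin, as ratios of group means with no test. The gene *Krtap3-2* supplied 81.3% to 95.8% of the Krtap counts in the WT libraries, and without it the ratios were 32134 and 3279. Without the library labelled NL 3 the ratio to NL skin, with all 58 genes, was 2748. The lowest L library stood far above the highest NL library, while the L libraries differed among themselves by a factor of 3.86. In bulk tissue, more cells that make these RNAs and more RNA per cell cannot be told apart.

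**Figure D1:**
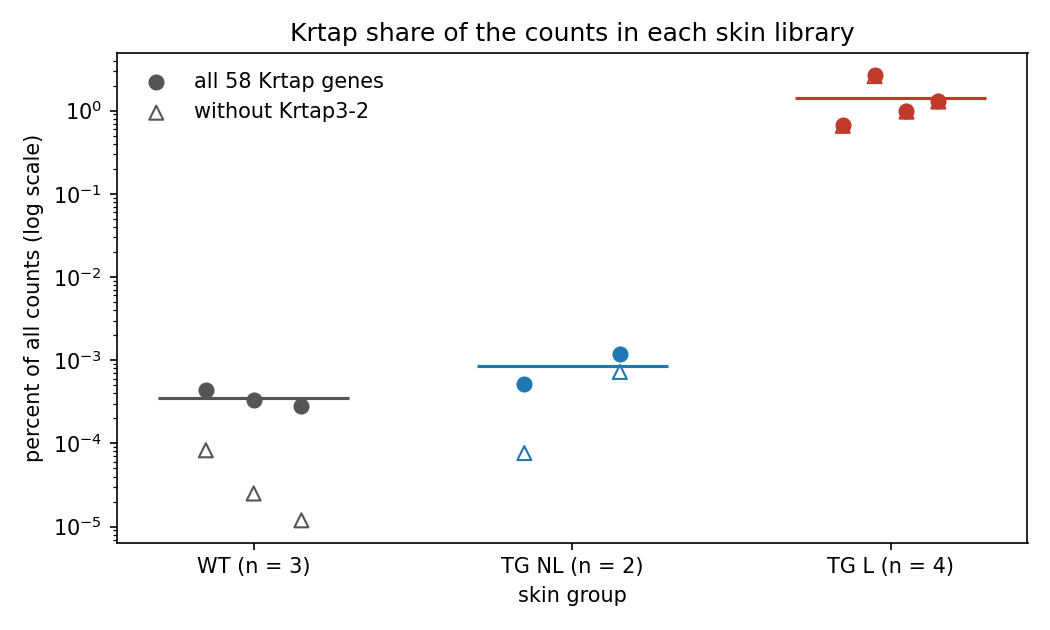
Percent of all counts assigned to Krtap genes in each skin library, on a log axis, for WT, TG NL and TG L skin. Filled circles are all 58 genes, open triangles leave out Krtap3-2, and horizontal lines are group means of the circles. The 4 L libraries lie between 0.670% and 2.66%, and the other 5 between 0.000283% and 0.00118%.

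Of the 58 genes, 57 had enough counts to be tested and all 57 were called higher in L than in WT skin (edgeR quasi-likelihood test, adjusted p between 5.46e-05 and 0.0318), where 23.0% of the 19101 tested genes were called higher. Against NL skin 55 of the 58 were called higher, where 13.2% of all tested genes were, with adjusted p up to 0.0356. No Krtap gene was called lower in either comparison. The median fitted log2 fold change of the tested members was 14.38 against WT and 12.57 against NL skin, beside 0.06 and 0.03 over all tested genes. These fitted values lean on the zeros of the control groups: 41 of the 58 genes had 0 counts in all WT libraries and 27 in both NL libraries. The fold of such a gene is given as a lower bound, with 3 counts taken for each library that had none. With these genes at their bound the median log2 fold was 10.66 against WT and 10.40 against NL skin. For 46 of the 57 tested genes only L libraries reached 10 counts, so the filter on low counts let them in through the group in which they were high.

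Every L library exceeded every WT library for 57 of the 58 genes (26.0% of all tested genes), and every NL library for 57 as well (24.7%). The exception in both was *Krtap13*, which had 1, 8, 8 and 0 counts in L 4 to L 7, none elsewhere, and was not tested. Both genes that missed the threshold against NL skin were also scarce. *Krtap20-2*, of the high glycine-tyrosine class, had 885, 69, 24 and 80 counts in L 4 to L 7 and 0 in all WT and NL libraries (adjusted p = 0.0760 against NL and 0.0318 against WT, edgeR). *Krtap19-9a*, a processed pseudogene, had 7, 68, 5 and 27 counts in these libraries and 0 in all others (adjusted p = 0.0753 and 0.0317, edgeR). With DESeq2 both passed against NL skin (adjusted p = 0.000780 and 0.00215). Without NL 2, or without the library labelled NL 3, 45 Krtap genes were called against NL skin in place of 55.

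**Figure D2:**
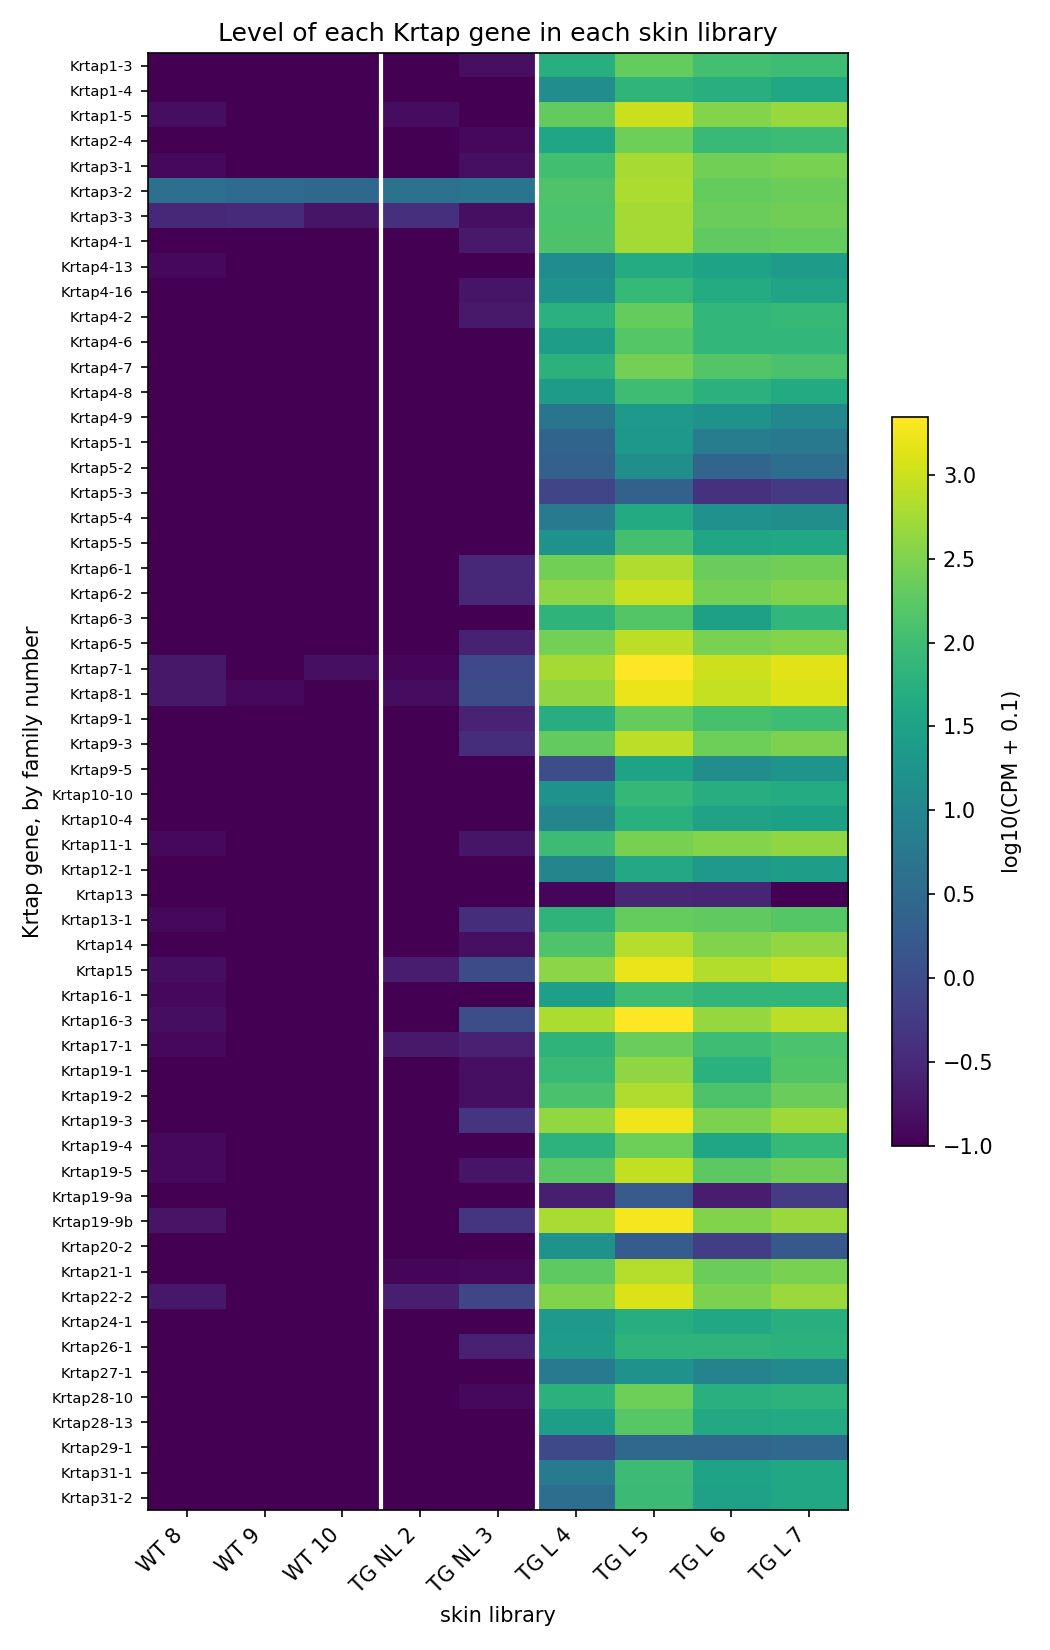
Level of each of the 58 Krtap genes (rows, ordered by family number) in each of the 9 skin libraries (columns), as log10 of CPM plus 0.1. All L libraries are bright in nearly every row, Krtap3-2 is the one row with a clear level in WT and NL skin, and NL 3 shows faint counts in 30 rows.

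*Krtap3-2*, a cysteine-rich member on chromosome 11 (chr11:99555823-99556853, − strand, GRCm38), was the exception in control skin. It had 165, 134 and 114 counts in WT 8, WT 9 and WT 10, 222 and 193 in NL 2 and NL 3, and 7638, 25569, 9464 and 12782 in L 4 to L 7. It made up 81.3%, 92.4% and 95.8% of all Krtap counts in the WT libraries and 85.1% in NL 2, but 38.9% in NL 3 and between 1.91% and 2.37% in L skin. No other member had more than 40 counts in any WT or NL library. *Krtap3-2* was 92.5-fold higher in L than in WT skin (log2 fold change 6.53 ± 0.63 SE, adjusted p = 0.000257, edgeR) and 67.8-fold higher than in NL skin (6.07 ± 0.74 SE, adjusted p = 0.00177), the smallest fitted change of the tested members in both comparisons. Its neighbour *Krtap3-3* had 9, 10 and 3 counts in the WT and 15 and 2 in the NL libraries and 129, 571, 222 and 256 CPM in L 4 to L 7. Both share sequence: 20.8% of the stretches of 151 bases (one read) in *Krtap3-2* also occur in *Krtap3-3*, and 31.2% in the other direction, so their split is uncertain. *Krtap3-1*, the other member of the family, had 1 count in WT 8 and 2 in NL 3.

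Comparing NL with WT skin, edgeR called no Krtap gene in either direction, where 0% of the 19101 tested genes were called higher, and DESeq2 called none either. At an unadjusted p below the threshold edgeR had 4 members, *Krtap15*, *Krtap22-2*, *Krtap8-1* and *Krtap16-3*, beside 7.67% of all tested genes. *Krtap15* had 2, 0 and 0 counts in WT and 6 and 37 in NL libraries (unadjusted p = 0.0116, adjusted p = 0.568, edgeR). Most of the NL counts lay in the library labelled NL 3, in which 30 of the 58 genes had at least 1 count and Krtap counts other than *Krtap3-2* came to 303. NL 2 had 39 such counts over 8 genes, and WT 8, WT 9 and WT 10 had 38, 11 and 5. The 3 largest fitted increases in NL over WT skin were those of *Krtap19-3*, *Krtap9-3* and *Krtap6-2*, which had 14, 11 and 9 counts in NL 3 and none in NL 2 or WT skin. The 3 smallest were those of *Krtap16-1*, *Krtap19-4* and *Krtap4-13*, each with 1 count in WT 8 and none in NL skin. Where the counts of NL 3 came from was not tested.

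Families 6, 8, 19, 20, 21 and 22 and *Krtap16-3* encode proteins in which at least 35% of residues are glycine or tyrosine and fewer than 30% are cysteine, as translated from GENCODE. These 15 high glycine-tyrosine genes, all on chromosome 16, held 5 of the 7 members with the highest level per kb of exon in L skin. *Krtap8-1*, the single member of its family, reached 411, 1631, 906 and 1252 CPM in L 4 to L 7 and 4, 1 and 0 counts in the WT libraries. *Krtap16-3* stood at 651, 2174, 451 and 799.6 CPM in L skin, with 40 counts in NL 3 and 2 in all of WT skin, and was 64403-fold higher in L than in WT skin (95% counting interval 17828 to 531794, adjusted p = 0.000462, edgeR). L 5 was highest for both genes. *Krtap22-2* had 326, 1305, 311 and 491 CPM in the L libraries and 1573 times the NL level, from 7 and 29 NL counts. *Krtap21-1* had 184, 714, 235 and 291 CPM in L skin, no WT count and 1 count in each NL library, and was at least 4994-fold higher in L than in WT skin. *Krtap20-2*, described above, was the weak member of this class at 9.26 CPM per kb.

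Family 19 was the largest contributor, at 17.3% ± 5.44 (SD, n = 4) of the Krtap counts in L skin over its 7 members. *Krtap19-9b*, its strongest member per length, encodes a protein with no cysteine and had 615, 1913, 328 and 488 CPM in L 4 to L 7 against 3, 0 and 0 counts in WT and 0 and 15 in NL libraries. *Krtap19-3*, with 437, 1720.0, 306 and 521 CPM in L skin, was at least 10473-fold above its WT level (adjusted p = 0.00110, edgeR), the largest bound among the 41 genes at 0 in WT skin. L 5 was highest for both. *Krtap19-4* had 63.4, 242, 37.6 and 82.5 CPM in the L libraries. The 4 members of family 6 together took a mean of 10.3% of the L Krtap counts, a share that was 14.2% in L 4 and between 8.26% and 9.78% in the other L libraries. *Krtap6-5*, with 272, 824, 289 and 339 CPM, was at least 6050.1-fold higher in L than in WT skin, and *Krtap6-2* at least 6781-fold. *Krtap6-3* was the weakest of the family, at 156 CPM per kb beside 725 CPM per kb for *Krtap6-5*.

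*Krtap7-1* and *Krtap15* encode proteins with less glycine and tyrosine (29.9% and 24.0%) and little cysteine (9.20% and 4.00%), and *Krtap7-1* had the highest level per length of all 58 genes. It stood at 570.2, 2197, 1017 and 1414 CPM in L 4 to L 7, a mean of 2093 CPM per kb. Its counts were 4, 0 and 2 in WT and 1 and 33 in NL libraries, and it was 27388-fold higher in L than in WT skin (adjusted p = 0.000265, edgeR). The next genes per length in L skin, *Krtap8-1*, *Krtap19-9b*, *Krtap16-3* and *Krtap22-2*, ranged from 1666 CPM per kb to 1829 CPM per kb, with SDs from 904 to 1575 CPM per kb over the 4 libraries. Their order does not exceed that spread. *Krtap15* had 388, 1670.4, 702 and 912 CPM in L skin and 873 CPM per kb. In GENCODE the span of *Krtap15* overlaps that of *Krtap14* on the opposite strand. Their RefSeq starts, at 88829009 (+ strand) and 88826145 (- strand), point away from each other, and overlap of exons was not examined. The library's strandedness is not given in the sources used here, so reads over any shared stretch cannot be told apart. *Krtap14* had 137, 731, 333 and 435 CPM, no WT count and 2 counts in NL 3.

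Other families of chromosome 16 encode proteins with less glycine and tyrosine and up to 12.7% cysteine. *Krtap11-1*, a protein known to bind hair keratins, had 94.5, 282, 342 and 419.7 CPM in L 4 to L 7 and 1 count in WT skin. It was highest in L 7, as were only *Krtap24-1* and *Krtap29-1* among the 58 genes. *Krtap24-1* had 22.2, 49.9, 40.5 and 55.2 CPM and was at least 589-fold higher in L than in WT skin (adjusted p = 0.000273, edgeR). *Krtap13-1* had 66.6, 203, 191 and 159.8 CPM, with 11 counts in NL 3. *Krtap26-1* stood at 25.2, 67.1, 65.8 and 61.2 CPM, at least 769-fold above WT skin. For *Krtap13-1* and *Krtap26-1* the 3 libraries L 5 to L 7 lay close together, above L 4. *Krtap27-1* was scarcer, with 5.83, 17.1, 8.61 and 12.0 CPM and no count in WT or NL skin.

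**Figure D3:**
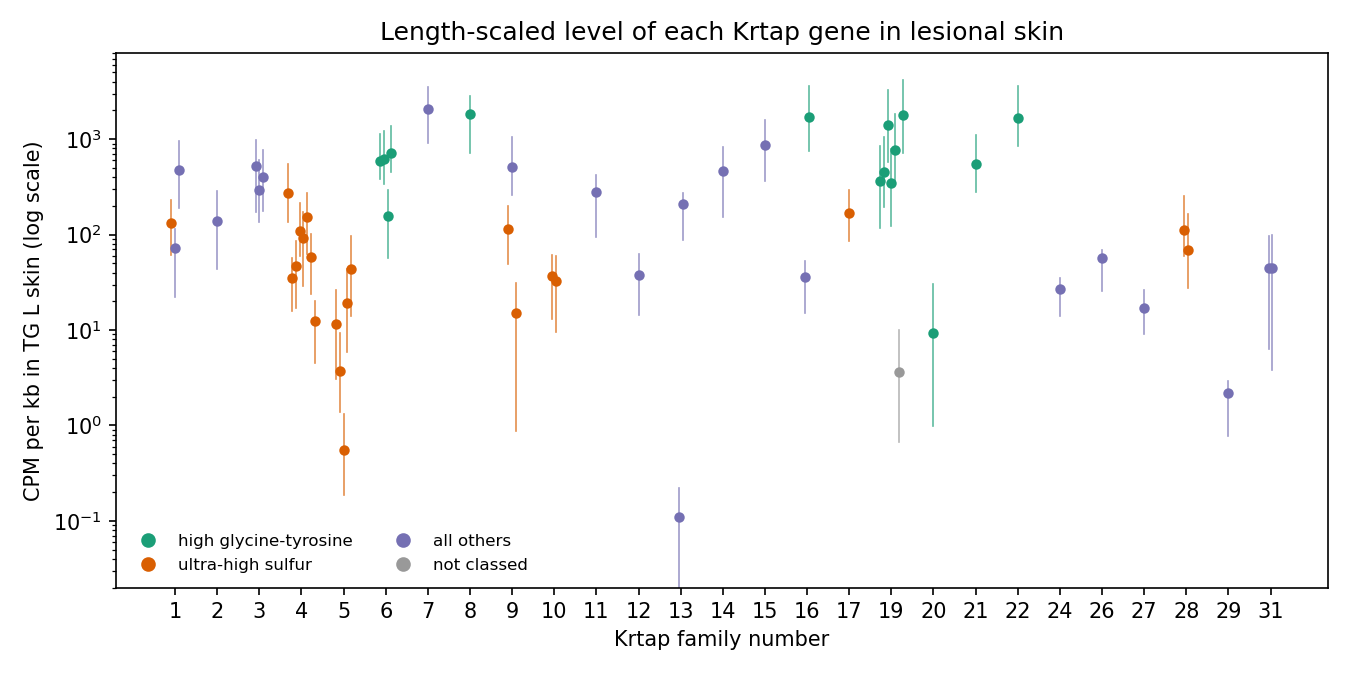
Mean level per length of each Krtap gene in lesional skin (CPM per kb of exon, log axis) by family number, coloured by the composition class of the encoded protein. Points are means of 4 libraries and lines run from the lowest to the highest library, cut at the axis for Krtap13, which had 0 in L 7. Krtap7-1 is highest, at 2093 CPM per kb, followed by members of families 8, 19, 16 and 22, and Krtap13 is lowest, at 0.110 CPM per kb.

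The 23 genes on chromosome 11 encode proteins with 14.6% to 38.9% cysteine, and all 23 were called higher in L skin against both other groups. The share called higher over all tested genes was 23.0% against WT and 13.2% against NL skin. Family 3 took 6.54% ± 0.864 of the L Krtap counts, family 4 5.58% ± 0.981, family 1 4.75% ± 0.686 and family 9 3.75% ± 0.260. *Krtap3-1* led its family per length, with 105, 591, 264 and 298 CPM in L 4 to L 7. *Krtap1-5* had 196, 1002, 342 and 463 CPM and, from 2 counts in WT 8 and 2 in NL 2, was 23313-fold higher in L than in NL skin (95% counting interval 6454 to 192505, adjusted p = 0.000750, edgeR). *Krtap9-3* had 198, 798, 241 and 302 CPM, no WT count and 11 counts in NL 3. Within family 9 the levels ran from 15.2 CPM per kb (*Krtap9-5*) to 507 CPM per kb. *Krtap2-4* had 36.1, 237, 87.6 and 94.2 CPM and its bound against WT skin was 1598-fold. L 5 was highest and L 4 lowest for each of these genes.

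Family 4, proteins of the shaft cortex with more than 30% cysteine, had 8 members between 12.5 CPM per kb (*Krtap4-9*) and 270.2 CPM per kb (*Krtap4-1*). *Krtap4-1* had 136, 561, 193 and 207 CPM in the L libraries, no WT count and 4 counts in NL 3. *Krtap4-7*, with 61.1, 267, 149 and 123 CPM, had no count in WT or NL skin and was at least 2292-fold higher in L than in NL skin (adjusted p = 0.00367, edgeR), the largest bound against that group. *Krtap4-6* had 26.5, 159, 74.9 and 73.9 CPM and was likewise at 0 outside L skin. *Krtap4-13* had 12.8, 45.9, 32.7 and 23.9 CPM, but 51.0% of its stretches of 151 bases occur in *Gm11554* or *Gm11569*, so its counts are uncertain. *Krtap17-1*, whose protein has 35.8% cysteine, 34.9% glycine and no tyrosine, had 65.6, 224, 98.6 and 128 CPM in L skin, 1, 0 and 0 counts in WT and 5 and 6 in NL libraries. Its adjusted p of 5.46e-05 against WT skin was the lowest of the tested members (edgeR). *Krtap16-1*, the longest member at 502 residues, had 28.3, 99.4, 73.1 and 70.9 CPM. Both members of family 31, 23.0% and 24.1% of whose 151-base stretches they share, were lowest in L 4: *Krtap31-2* had 3.55, 92.5, 30.6 and 40.6 CPM. *Krtap29-1* was the scarcest tested gene of chromosome 11, at 0.801, 2.74, 2.58 and 2.99 CPM.

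The smaller groups, on chromosomes 7, 10 and 1, had no count in WT skin. Family 5 on chromosome 7 encodes ultra-high sulfur proteins of the hair cuticle, and its 5 members took 0.577% ± 0.146 of the L Krtap counts. *Krtap5-5* had 16.6, 113, 35.7 and 38.1 CPM in L 4 to L 7 and was at least 715-fold above WT skin (adjusted p = 0.00279, edgeR). *Krtap5-3* was the scarcest tested gene per length, with 0.710, 2.17, 0.308 and 0.432 CPM and a bound of 12.7-fold (adjusted p = 0.00885 against WT and 0.0265 against NL skin, edgeR). On chromosome 10, *Krtap10-10* had 17.2, 79.4, 50.1 and 46.7 CPM and *Krtap12-1* 9.54, 41.5, 22.2 and 26.2 CPM. All 3 members there lie inside the span of *Tspear*, and *Krtap10-10* shares 36.2% of its 151-base stretches with *Gm2696*. On chromosome 1, *Krtap28-10* combines 42.9% cysteine with 38.7% glycine and no tyrosine. It had 61.5, 244, 57.0 and 64.1 CPM in L skin, 1 count in NL 3 and none in NL 2. The 16 members of all families not named one by one ran from *Krtap5-2* at 3.74 CPM per kb to *Krtap19-5* at 763 CPM per kb in L skin. All 16 were called higher in both comparisons, with adjusted p up to 0.00593 against WT and 0.0187 against NL skin (edgeR). Over all tested genes the shares called higher were 23.0% and 13.2%. L 5 was highest for each of the 16, and together they had 1 count in WT skin, none in NL 2 and 32 in NL 3. Of the 16, 6 lost their call against NL skin under at least 1 other setting, among them leaving out either NL library.

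In lesional skin the high glycine-tyrosine genes, 15 of 58, took 59.0%, 53.7%, 40.5% and 46.0% of the Krtap counts of L 4 to L 7. The 21 ultra-high sulfur genes, with at least 30% cysteine, took 9.50%, 10.7%, 13.3% and 9.84%. The 21 others, mostly high sulfur proteins but with *Krtap7-1*, *Krtap15* and other low-cysteine members among them, took 31.5%, 35.5%, 46.2% and 44.2%. Per length, the median member of the high glycine-tyrosine class stood at 615 CPM per kb, against 46.8 for the ultra-high sulfur class and 137 for the others, with wide overlap. These are descriptions with no test, and the class follows chromosome, since no ultra-high sulfur gene lies on chromosome 16. All 15, 21 and 20 tested genes of the 3 groups were called higher in L than in WT skin, where 23.0% of all tested genes were. All 57 tested members were called, so these counts do not set the classes apart.

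**Figure D4:**
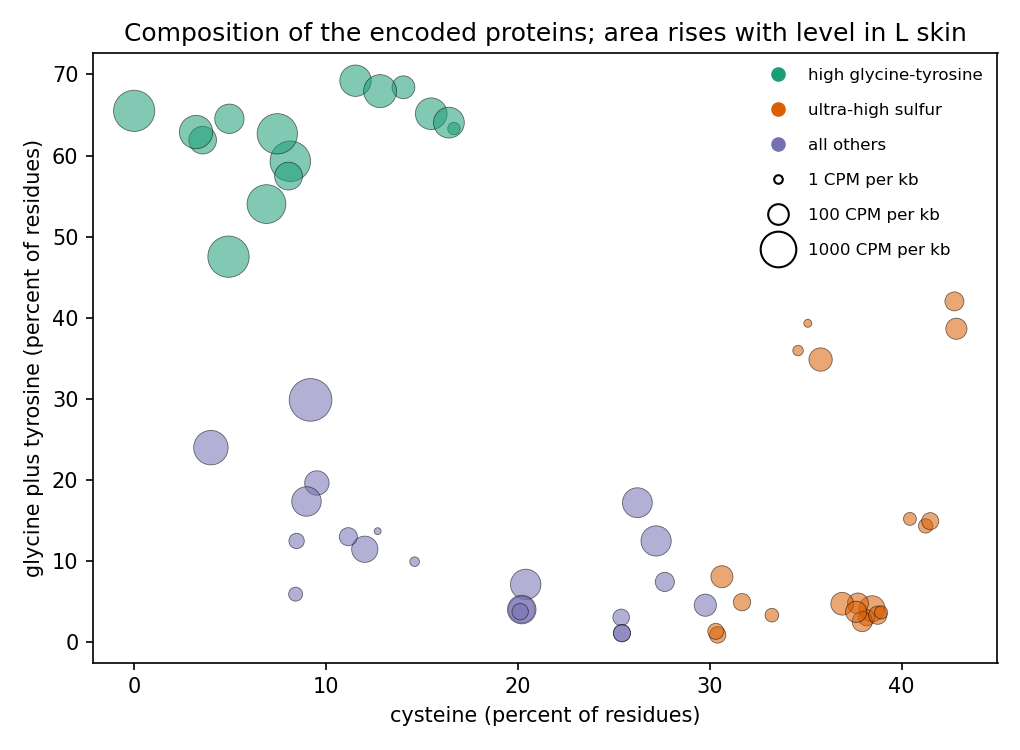
Cysteine against glycine plus tyrosine, in percent of residues, for the 57 encoded Krtap proteins, coloured by class. Circle area rises with the mean level in lesional skin (CPM per kb), and the 7 largest circles belong to proteins with 0% to 9.20% cysteine.

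The L libraries were not ordered alike for all classes. L 5 was highest for 54 of the 58 genes, L 7 for 3 and L 4 for *Krtap20-2* alone. L 4 was lowest for 44 and L 6 for 13. Of the high glycine-tyrosine genes 10 of 15 were higher in L 4 than in L 6, against 2 of 21 ultra-high sulfur genes and 0 of the 21 others. The median ratio of L 4 to L 6 was 1.42 in the first class and 0.411 and 0.412 in the others. *Krtap20-2* had the extreme ratio, 30.5. Single libraries are compared here, so these ratios carry no replicate check.

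**Figure D5:**
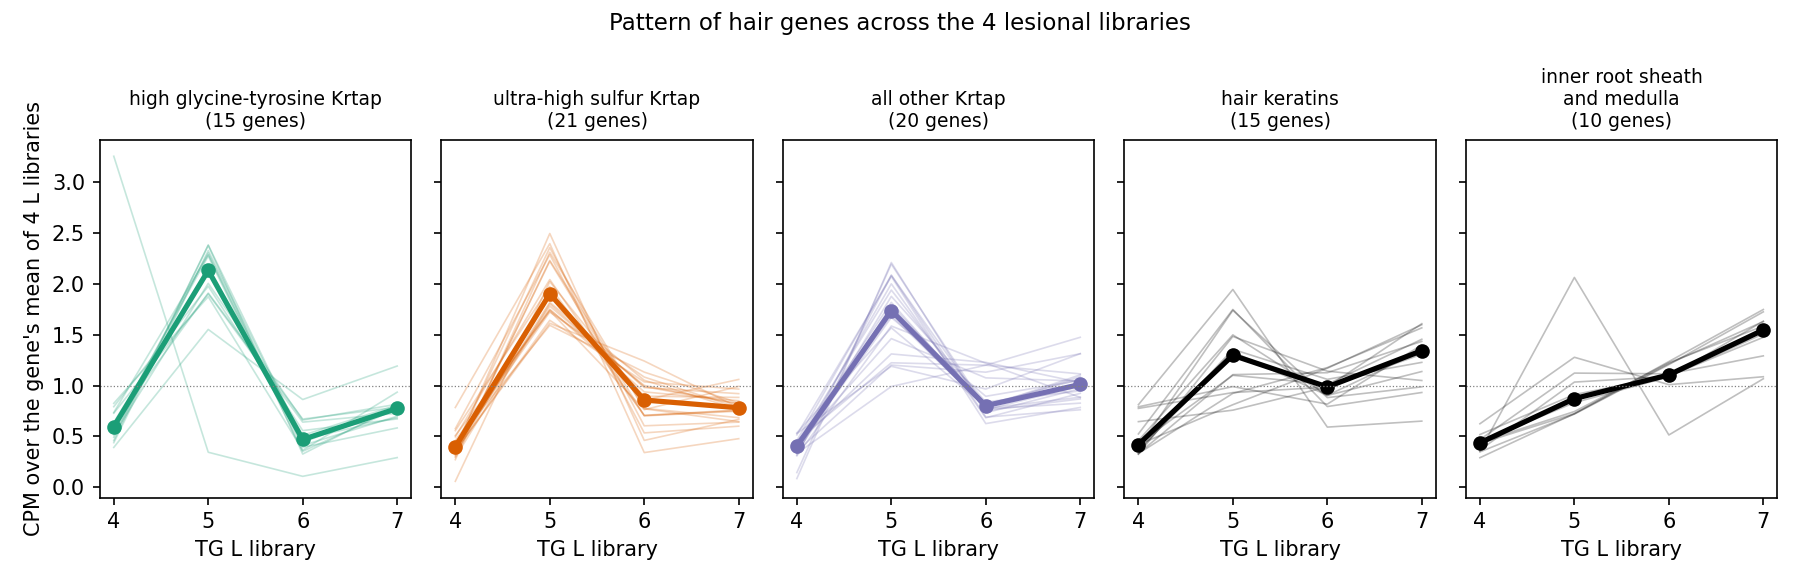
CPM of each gene in lesional libraries L 4 to L 7, divided by its mean over the 4 libraries (thin lines, with the median as a thick line), for the tested Krtap genes of 3 composition classes, the hair keratins and the genes of the inner root sheath and medulla. The Krtap medians peak in L 5 (between 1.74 and 2.13 times the mean), and those of the hair keratins and the inner root sheath in L 7 (1.34 and 1.55).

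Most of the other genes of growing hair examined were also called higher in L skin. Of all tested genes 23.0% were called higher against WT and 13.2% against NL skin. All 15 hair keratins analysed (*Krt85* was not analysed here) were called higher in L skin against both groups, with a median log2 fold change of 11.98 against WT and 11.28 against NL skin. *Krt33a* and *Krt83*, which build the shaft cortex, reached 775 ± 349 and 728 ± 343 CPM (SD, n = 4) in L skin. All 10 genes of the inner root sheath and medulla were called higher in both comparisons as well, led by *Tchh*, which encodes trichohyalin (4356 ± 1733 CPM), and *Krt71* (3776 ± 2386 CPM). Of 8 regulators of shaft formation 7 were called higher in L than in WT skin. *Hoxc13*, a factor known to control hair keratin genes, rose from 2.09 ± 0.113 CPM in WT to 57.9 ± 22.3 CPM in L skin (adjusted p = 6.80e-05, edgeR), and *Dlx3* from 9.32 ± 1.80 to 141 ± 72.8 CPM (adjusted p = 0.000427). *Gata3*, a factor of the inner root sheath, went against the list. It had 102 ± 16.3 CPM in WT, 174 ± 16.2 CPM in NL and 116 ± 18.2 CPM in L skin, and was called lower in L than in NL skin (adjusted p = 0.0363, edgeR) and not against WT skin (adjusted p = 0.326). Of 7 other shaft genes 6 were called higher in both comparisons, with *S100a3*, a cuticle protein, at 917 ± 233 CPM and *Psors1c2* at 327 ± 128 CPM in L skin, and *Selenbp1* not called.

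The balance between Krtap genes and their partners varied from one L library to another. Summed Krtap CPM was 3.15, 3.99, 1.68 and 1.70 times that of the hair keratins in L 4 to L 7, and 1.21, 2.20, 0.575 and 0.543 times that of the inner root sheath and medulla genes. L 4 and L 5 therefore had more Krtap RNA per hair keratin RNA than L 6 and L 7. In WT skin, where *Krtap3-2* supplied most Krtap counts, the first ratio was 0.565, 0.488 and 0.319. Hair keratins were highest in L 7 for 9 of 15 genes and the inner root sheath genes for 8 of 10, whereas only 3 of the 58 Krtap genes were.

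Markers of other cell types were compared in the same libraries. Skeletal muscle markers summed to 22.9 to 6454 CPM in L, 24806 to 34588 in WT and 23264 to 27779.8 in NL skin, with 2 of 6 called lower against WT skin (20.2% of all tested genes) and 0 of 6 against NL skin (11.8%). L 5, which had the most Krtap RNA, had the least muscle RNA, and L 4 had the least Krtap and the most muscle RNA of the L libraries. L 6 and L 7 went the other way. L 7 had more of both, with 12056 against 9270 CPM of Krtap and 1366 against 344 CPM of muscle RNA. Adipocyte markers summed to 675 to 3375 CPM in L, 5219 to 9082 in WT and 4174 to 5596 in NL skin, with 3 of 6 called lower against WT and 0 of 6 against NL skin. Melanocyte markers summed to 108, 102, 127 and 593 CPM in L 4 to L 7. They came to 10.5 to 18.9 CPM in WT and 8.34 to 10.3 CPM in NL skin. In both comparisons 5 of 6 were called higher. Of all tested genes 23.0% were called higher against WT and 13.2% against NL skin, shares that stand beside the lists below too. Dermal papilla markers were called higher for 4 of 8 against WT and 3 of 8 against NL skin, and 1 was called lower against NL skin. Among bulge and outer root sheath genes 5 of 8 were called higher and 2 lower against WT skin, and 2 higher and 3 lower against NL skin. Epidermal markers were called higher for 3 of 6 against WT and 1 of 6 against NL skin, and immune markers for 3 and 1 of 6. Among fibroblast markers 1 of 6 was called lower against WT skin. A single call in a list of 6 is near the shares of all tested genes. With the listed muscle, adipocyte and hair keratin genes left out of the totals, the Krtap share of L skin was 1.42% in place of 1.41%. These genes summed to means of only 2047, 2308 and 5372 CPM in L skin. Leaving them out could therefore hardly move the share, and it is no check on tissue make-up. The part of the other markers in the Krtap result was not tested.

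The 58 genes lie in 5 groups: 25 on chromosome 16 (chr16:88610705-89571183), 23 on chromosome 11 (chr11:99550130-99993994), 5 on chromosome 7 (chr7:142174535-142304594), 3 on chromosome 10 (chr10:77720599-77837252) and 2 on chromosome 1 (chr1:83041524-83061921), in GRCm38 with GENCODE M21. Most have a single exon (53 of 58). Of the other protein-coding genes between the first and last member of each group, 44 were tested. Of these, 41 were called higher in L than in WT skin, where 23.0% of all tested genes were. Against NL skin 41 were called higher as well, where 13.2% of all tested genes were. The 3 not called against WT skin, *1110057P08Rik*, *2310057N15Rik* and *Gm6358*, all lie on chromosome 16. *Tspear*, which spans the chromosome 10 group, was among those called higher. Apart from *Tspear*, the tested neighbours bear only Gm or Rik names, and whether they encode keratin-associated proteins was not examined. Several of the tested neighbours share stretches of read length with Krtap genes, so the split of counts between them is uncertain. Among them are *Gm11554* and *Gm11569* with *Krtap4-13*, *Gm10229* with *Krtap6-1* and *Gm2696* with *Krtap10-10*. Whether neighbours unlike Krtap genes in sequence rose as a set was not tested.

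Promoters could be compared for 51 of the 58 genes, from the RefSeq annotation of GRCm38.p6. The letters TATAAA, searched on both strands of the 250 bases before the start, were found in 41 of the 51 promoters (80.4%), against 12.4% of 32851 mouse promoters searched the same way. On the gene's own strand, with the first letter 40 to 20 bases before the start, they were found in 31 of 51 (60.8%), against 1.99%. The letters CTTTGAA, searched on both strands of the same 250 bases, were found in 7 of 51 (13.7%), against 4.46%. Shown are the 100 bases before the start, 5′ to 3′ on the gene's strand, with TATAAA matches in capitals, for strong high glycine-tyrosine genes and the weak *Krtap20-2* of that class, for leading genes of other classes, for *Krtap3-2*, which was present in WT skin, and for *Krtap15*, which has no TATAAA in the 250 bases.
Krtap8-1 (chr16:89487953-89488052, - strand): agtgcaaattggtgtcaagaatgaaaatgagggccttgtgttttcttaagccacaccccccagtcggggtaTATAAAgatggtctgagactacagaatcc
Krtap16-3 (chr16:88962874-88962973, - strand): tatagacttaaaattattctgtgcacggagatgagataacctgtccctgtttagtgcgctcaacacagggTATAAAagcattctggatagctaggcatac
Krtap19-9b (chr16:88932265-88932364, - strand): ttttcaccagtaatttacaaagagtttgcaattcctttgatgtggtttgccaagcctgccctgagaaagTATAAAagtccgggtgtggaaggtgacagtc
Krtap22-2 (chr16:89010760-89010859, - strand): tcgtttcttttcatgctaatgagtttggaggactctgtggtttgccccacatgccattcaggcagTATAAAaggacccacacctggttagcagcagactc
Krtap20-2 (chr16:89205761-89205860, + strand): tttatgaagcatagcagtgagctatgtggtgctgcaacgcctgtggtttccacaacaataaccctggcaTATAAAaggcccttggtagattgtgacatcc
Krtap11-1 (chr16:89571184-89571283, - strand): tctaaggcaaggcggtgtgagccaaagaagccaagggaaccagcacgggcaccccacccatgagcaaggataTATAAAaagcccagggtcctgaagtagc
Krtap4-1 (chr11:99628240-99628339, - strand): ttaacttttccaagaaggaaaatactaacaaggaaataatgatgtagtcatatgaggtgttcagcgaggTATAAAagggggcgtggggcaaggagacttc
Krtap5-5 (chr7:142229972-142230071, - strand): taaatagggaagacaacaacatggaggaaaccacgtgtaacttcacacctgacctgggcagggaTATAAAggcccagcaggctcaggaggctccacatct
Krtap3-2 (chr11:99556854-99556953, - strand): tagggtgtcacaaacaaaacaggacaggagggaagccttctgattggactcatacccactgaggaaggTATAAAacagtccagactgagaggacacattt
Krtap15 (chr16:88828909-88829008, + strand): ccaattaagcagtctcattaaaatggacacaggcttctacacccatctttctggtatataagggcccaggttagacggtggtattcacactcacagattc

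In 9 of these 10 stretches TATAAA stood once, between 28 and 36 bases before the start. *Krtap20-2*, with 4.95 ± 7.46 CPM (SD, n = 4) in L skin, and *Krtap3-2*, with counts in every WT library, had it as did *Krtap16-3*, at 1019 ± 783 CPM. A match is a description of these letters and does not show that a factor binds there. Only exact letters were counted. The stretch of *Krtap15* holds tataag, which differs from TATAAA in its last letter, so a promoter without a match can still hold close variants.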

How the data were processed

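Gene expression was measured by RNA-seq in 9 skin and 12 lymph node libraries. The authors deposited expected counts per gene made with RSEM, and per the submitters' processing notes the tools were cutadapt 4.8, FastQC 0.11.8, STAR 2.7.8a, RSEM 1.3.3 and MultiQC 1.20 on GRCm38. Strandedness and the annotation release are not given in the sources used here. Reads that fit several genes are shared out by RSEM, so near-identical Krtap genes can trade counts. No deposited comparison was used.

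Expected counts were rounded to whole numbers and tested in R 4.3.3 with edgeR 4.0.16 (limma 3.58.1): TMM scaling, filterByExpr (minimum count 10, total 15), robust quasi-likelihood F-test, all 9 skin libraries in 1 fit, Benjamini-Hochberg adjustment over the 19101 genes tested, threshold 0.05. DESeq2 1.42.0 was an alternative, beside other scalings, filters, thresholds and each library left out. The edgeR script was tested on simulated data for L against WT skin only, with changes smaller than those of the Krtap genes. Gene positions, exon lengths and proteins came from GENCODE M21. A group with 0 counts was set to a floor of 3 counts per library. A group total of 1 to 3 counts gives a fold with a 95% Poisson interval, and both cover counting error only. The labels give 1 batch and group each library by lesion status and genotype.

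The members and the gene lists were chosen with earlier results of these data known. Genes were named by rule: the member of each family with the highest mean level per kb, the 3 largest and 3 smallest fitted changes of each comparison, members tested and not called, and in each related list the 2 genes with the highest mean CPM and those against its direction. *Krtap3-3*, *Krtap4-9*, *Krtap6-3*, *Krtap9-5*, *Krtap13*, *Hoxc13*, the members with a low unadjusted p and the genes not called between members were named after their values were seen.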

Additional observations from a re-analysis of the deposited data

Results flagged for a closer look

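Of 50 sets of 4 lesional values examined, 7 Krtap genes and 1 marker sum had a library far from the other 3, by the gap to the nearest value divided by the range. For normally distributed values about 1 in 20 sets is marked by chance. The values here were CPM without logs, for which that rate was not examined, and genes of the same libraries are not independent. L 5 stood high for *Krtap4-1* (0.832), *Krtap6-2* (0.834), *Krtap6-5* (0.878), *Krtap19-3* (0.848) and *Krtap28-10* (0.962), where it had 244 CPM against 57.0 to 64.1 in the other L libraries. L 4 stood low for *Krtap26-1* (0.857), at 25.2 CPM. L 4 stood high for *Krtap20-2* (0.925). It had 16.1 CPM there against 0.529 to 1.70 CPM in L 5 to L 7, and without L 4 its adjusted p against NL skin was 0.0111 in place of 0.0760 (edgeR). L 7 stood high for the summed melanocyte markers (0.950), while it was below L 5 in summed Krtap CPM.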

How the results depend on the processing

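Under all alternatives run, between 54 and 57 Krtap genes were called higher in L than in WT skin and between 45 and 57 in L than in NL skin, none was called lower, and none was called between NL and WT skin. In the main fit 23.0% of all tested genes were called higher against WT and 13.2% against NL skin. Such shares are not given here for the alternatives. DESeq2 called 57 Krtap genes in both comparisons. Without a filter on low counts 54 and 50 were called, with *Krtap13* tested and not called (adjusted p = 0.130 against WT skin, edgeR), and at an adjusted p under 0.01 the numbers were 54 and 48. With single libraries left out the ranges were 55 to 57 and 45 to 56, the lowest without NL 2 or NL 3, when the lone NL library is assumed to vary like the other groups. The mean Krtap share of L skin ran from 0.992% to 1.66%, that of NL skin from 0.000512% to 0.00118% and that of WT skin from 0.000306% to 0.000386%. Under at least 1 setting a call against WT skin was lost, or the gene was not tested, for 5 members (*Krtap5-3*, *Krtap9-5*, *Krtap19-9a*, *Krtap20-2* and *Krtap31-2*), and against NL skin for 10 (*Krtap5-1* to *Krtap5-5*, *Krtap9-5*, *Krtap19-1*, *Krtap28-13*, *Krtap31-1* and *Krtap31-2*). No direction turned. The fold of summed Krtap CPM without *Krtap3-2* or without single libraries, an alternative chosen after seeing the data, ran from 2563 to 32134 against WT and from 1097 to 3279 against NL skin. Depth leaves 41 of the 58 folds against WT and 27 against NL skin as bounds, and changes between NL and WT skin of a few counts were not detectable at this depth. No paired analysis was possible because each number on the skin labels is used for 1 library.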
